A study of Penicillium oxalicum with 114 samples.

Results

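The clrB deletion mutant of the filamentous fungus Penicillium oxalicum was followed by RNA-seq at 3 times after its mycelium had been moved from glucose medium to Avicel, a purified crystalline cellulose. The time course holds 9 of the 114 libraries of the series: 3 libraries, lettered F, S and T, at each of 12 h, 24 h and 36 h. The mutant (strain MuPOXClrB) lacks the gene POXClrB. The control strain carries a deletion of POXKu70, a gene of DNA end joining, and its libraries on Avicel, 3 at 12 h (numbered 23 to 25) and 3 at 36 h (26 to 28), were used as the background. A 24 h group of the control on Avicel alone was not analysed here, so the comparison with it covers the span from 12 to 36 h. The labels do not say whether the clrB mutant also carries the ku70 deletion or whether each strain was 1 transformant. Nor do they say whether the 3 libraries of a time came from separate cultures. The p-values below therefore measure a spread between the libraries of a group that may be technical. That spread was pooled over 48 time-course libraries in 16 groups, which also held a POX01167 mutant and cultures on wheat bran plus Avicel. In the libraries labelled as that mutant on Avicel, the target gene is present. The descriptions give 12, 24 and 36 h, whereas the growth text repeats 24 h for every library, and the times used are those of the descriptions.

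ClrB is a zinc-cluster transcription factor of filamentous ascomycetes that activates cellulase genes when cellulose or its breakdown products are present. Cellulose is taken apart outside the cell by cellobiohydrolases, which release cellobiose from chain ends, endoglucanases, which cut within chains, and beta-glucosidases, which split cellobiose to glucose. The same fungi secrete xylanases against hemicellulose and amylases against starch, and the amylases answer to a different zinc-cluster activator. The deposited tables identify genes only by POX numbers. The membership of the cellulase, xylanase, amylase and regulator lists comes from earlier publications of the study's group as recalled, no file annotates it, and every other gene is given by its number alone, with no role.

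Totals ran from 5368155 to 8246303 estimated counts in the 9 mutant libraries and from 6985323 to 7905887 in the 6 control libraries. POX01960, a gene already known from these tables to be near 0 in clrB mutants, stood at 0, 0.138 and 0.899 CPM at 12 h, 0.121, 0.138 and 0.147 at 24 h, then 1.10, 0.420 and 1.03 at 36 h in libraries F, S and T, and at 242, 256 and 256 CPM at 12 h and 216, 276 and 249 CPM at 36 h in the control. CPM are counts scaled to the library's total. Values of 3 libraries are given throughout in the order F, S, T. The labels name no locus for POXClrB, so this is a check of the strain only by an earlier result. The libraries of the mutant stayed at or below 1.10 CPM, and those of the control did not overlap with them.

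The 3 libraries of a time did not behave as 3 even replicates. Among 1856 genes whose levels were quantified alike under the letters over all time-course groups, 275 differed more than 2-fold between libraries F and S at 12 h, and library T lay between them in 98.2% of these genes, at a median position of 0.44 on a scale where F is 0 and S is 1. At 24 h there were 198 such genes, with T between in 98.5% and a median position of 0.54, and at 36 h only 24 such genes, with T between in 91.7%. The reverse was rare: where F and T differed more than 2-fold at 12 h, S lay between them in 2.20% of 91 genes, and at 24 h in 2.11% of 95 genes. In the control at 12 h, 41 genes differed more than 2-fold between the libraries nearest in quantification to F and S, with the third between in 90.2%. In the control at 36 h, 13 genes did so, with the third between in 38.5%, and the library nearest to S lay between in 55.6% of 9 genes. What places library T between the others was not tested. The counts of changed genes over the steps, the span and the difference from the control are therefore also given for libraries F and S alone, 2 a group.

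**Figure D1:**
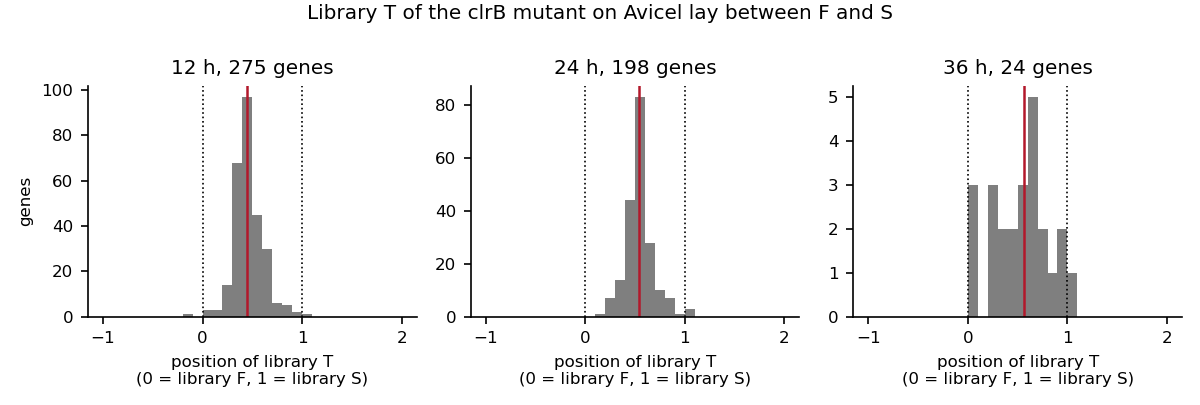
Position of library T between libraries F (0) and S (1) of the clrB mutant on Avicel, for genes more than 2-fold apart between F and S; the y axis counts genes and the red line marks the median. The median was 0.44 over 275 genes at 12 h, 0.54 over 198 genes at 24 h and 0.56 over 24 genes at 36 h, and values beyond -1 or 2 are drawn at those ends.

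Over the first step, 24 h against 12 h, 187 genes were higher (2.30%) and 224 lower (2.75%), 411 of 8147 tested or 5.04%. Over the second step, 36 h against 24 h, 220 genes were higher (2.7%) and 143 lower (1.76%), 363 genes or 4.46%. A gene counts as changed, and the words rose and fell are used, where edgeR's quasi-likelihood test gave a Benjamini-Hochberg adjusted p under 0.05 and the log2 fold change was at least 1 in size. Both steps use the same 24 h libraries and are not independent of each other. Over the whole span, 36 h against 12 h, 439 genes were higher (5.39%) and 373 lower (4.58%), 812 genes or 9.97%.

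The counts depend on how the spread is estimated. With libraries F and S alone, 12 genes were changed over the first step (0.148%), 49 over the second (0.603%) and 274 over the span (3.37%), and with the letter as a block these were 79 (0.973%), 123 (1.51%) and 490 (6.03%). With the letter as a block and all libraries the counts were 611 (7.50%), 556 (6.82%) and 1075 (13.2%), and with the spread taken from the 9 mutant libraries alone they were 27, 106 and 434. On log2(FPKM + 1) with limma the split turned from 187 higher and 224 lower to 301 and 177 over the first step, and from 220 and 143 to 244 and 246 over the second, where the median of all genes was 0.12 and -0.17. Without the 24 h library F, 220 genes were changed over the second step, and without the 36 h library F, 236.

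**Figure D2:**
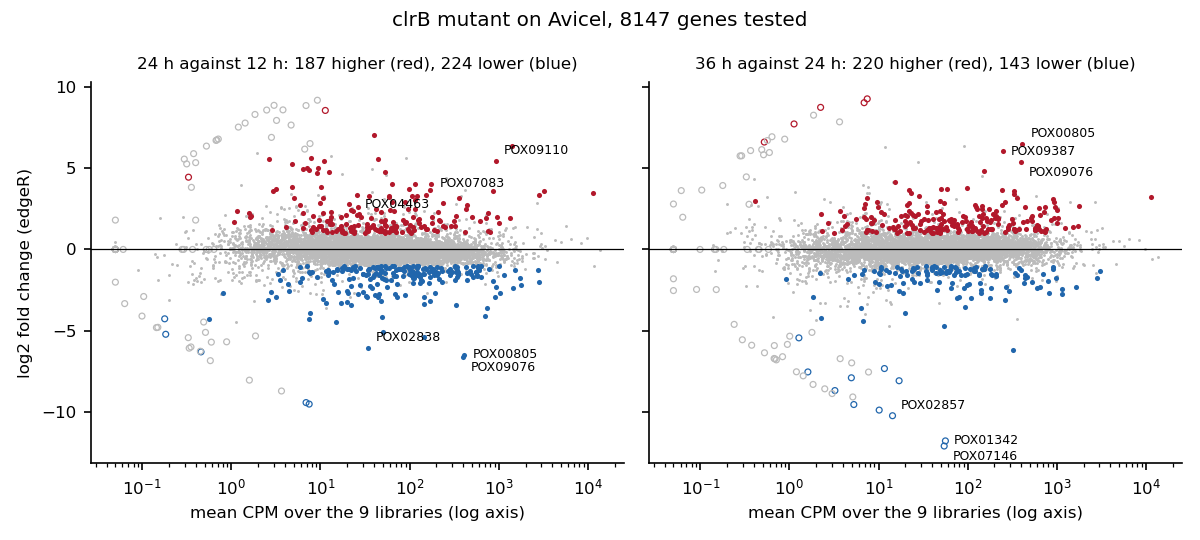
Log2 fold change of each of the 8147 tested genes against its mean level over the 9 mutant libraries (log axis, drawn at no less than 0.05 CPM), left for 24 h against 12 h and right for 36 h against 24 h; red and blue genes were changed, and open circles are genes at 0 in all libraries of 1 time, whose fitted change is not a measured size. The 3 named genes with the highest and lowest change of each step are labelled, with POX09076 and POX00805 among the lowest of the first step and the highest of the second.

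No cellulase gene was changed over the course, and 7 of the 9 stayed below the control in every library. Of the 9 genes, 0 were changed in edgeR over either step or over the span, against 5.04%, 4.46% and 9.97% of all genes. With 9 genes a count of 0 is near these shares and does not set the list apart. At an unadjusted p under 0.05 edgeR counted 0, 0 and 2 of them, and DESeq2 and limma called 0 in each. The difference of the spans from the control passed in 0 of 9 in edgeR, DESeq2 and limma, with 2 at an unadjusted p under 0.05 in edgeR. POX05587 stood at 3.91, 36.1 and 11.7 CPM at 12 h, 14.1, 21.8 and 18.3 at 24 h, then 21.7, 22.9 and 17.9 at 36 h. In the control POX05587 stood at 873, 1657 and 1085 CPM at 12 h, then 2784, 2679.6 and 2139.8 at 36 h. POX04786 stood at 0, 13.5 and 11.98 CPM at 12 h, 0, 9.09 and 8.84 at 24 h, then 4.40, 16.5 and 12.9 at 36 h. In the control POX04786 stood at 998, 2350.4 and 1829 CPM at 12 h, then 2428, 3914 and 3767 at 36 h. In both genes every mutant library lay below every control library.

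POX01166, whose neighbour POX01167 is a regulator deleted elsewhere in the series, stood at 8.01, 18.04 and 13.8 CPM at 12 h, 12.98, 17.5 and 13.1 at 24 h, then 27.7, 20.8 and 18.98 at 36 h. In the control POX01166 stood at 2338, 2806 and 2728 CPM at 12 h, then 3112, 4052 and 3794 at 36 h. The 12 h and 24 h libraries of the mutant overlapped, and its change over the span, 0.78 on the log2 scale (SE 0.48, adjusted p = 0.345 in edgeR), did not pass the test. The adjacent genes POX05570 and POX05571 had the largest changes of the list over the span, 1.35 (SE 0.56, adjusted p = 0.104) and 1.23 (SE 0.51, adjusted p = 0.105). POX05571 reached 6.74, 8.39 and 9.27 CPM at 36 h from 1.49, 4.96 and 4.04 CPM at 12 h, and these libraries did not overlap, as in 28.5% of all genes. The control held 403, 647 and 602 CPM of it at 36 h.

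POX03641 lay between 33.6 and 46.2 CPM in all 9 mutant libraries, and POX07535 lay between 1.35 and 5.82 CPM. POX02740 and POX06835 overlapped with the control. POX06835 stood at 249.6, 445 and 364 CPM at 12 h, 225, 688 and 512 at 24 h, then 345, 583 and 499 at 36 h. In the control POX06835 stood at 259, 341 and 308 CPM at 12 h, then 283, 356 and 353 at 36 h. POX02740 stood at 11.55, 239 and 206 CPM at 12 h, 19.04, 178 and 209.7 at 24 h, then 94.1, 81.6 and 157 at 36 h, with library F the lowest at 12 and 24 h. The summed level of the other 7 genes was 84.1 ± 33.2, 95.7 ± 4.3 and 113 ± 6.9 CPM at 12, 24 and 36 h (mean ± SD, n = 3), against 8369 ± 1869 and 11659.6 ± 1541 CPM in the control at 12 and 36 h. Over the span the list's median log2 fold change was 0.42, and that of all genes -0.03.

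Of the 4 xylanase genes, POX08484 alone rose over the span, against 5.39% of all genes. Over the steps 0 of 4 were changed in edgeR, against 5.04% and 4.46% of all genes, and with 4 genes such a count is near these shares. At an unadjusted p under 0.05 edgeR counted 0 and 1, and limma called 1 over the first step where DESeq2 called 0 over both. POX08484 stood at 33.9, 16.5 and 0 CPM at 12 h, 70.8, 54.97 and 18.6 at 24 h, then 118, 168 and 97.2 at 36 h, and over the span it rose (log2 fold change 3.02, SE 0.81, adjusted p = 0.00726). All 3 libraries of 36 h lay above all 3 of 12 h, and the 12 h library T held no count. The rise was 3.89 without the 12 h library F and 2.44 without the 12 h library T, and passed the test in both cases. The control held 676, 1027 and 769 CPM at 12 h and 1075, 1355 and 1156 CPM at 36 h, and the mutant lay below it at both times. The span of the mutant minus that of the control was 2.48 (SE 1.07, adjusted p = 0.252 in edgeR), which did not pass.

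The other xylanase genes were not changed. POX00063 lay between 42.8 and 98.7 CPM in the mutant libraries, against 496 to 1205 CPM in the control. POX06783 followed the letters, with 8.57, 68.6 and 13.03 CPM at 12 h and 12.8, 65.5 and 10.3 CPM at 36 h, and library S also stood highest in the control. POX08990 stayed between 1.18 and 4.42 CPM in the mutant. The list's median log2 fold change over the span was -0.15, and that of all genes -0.03.

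**Figure D3:**
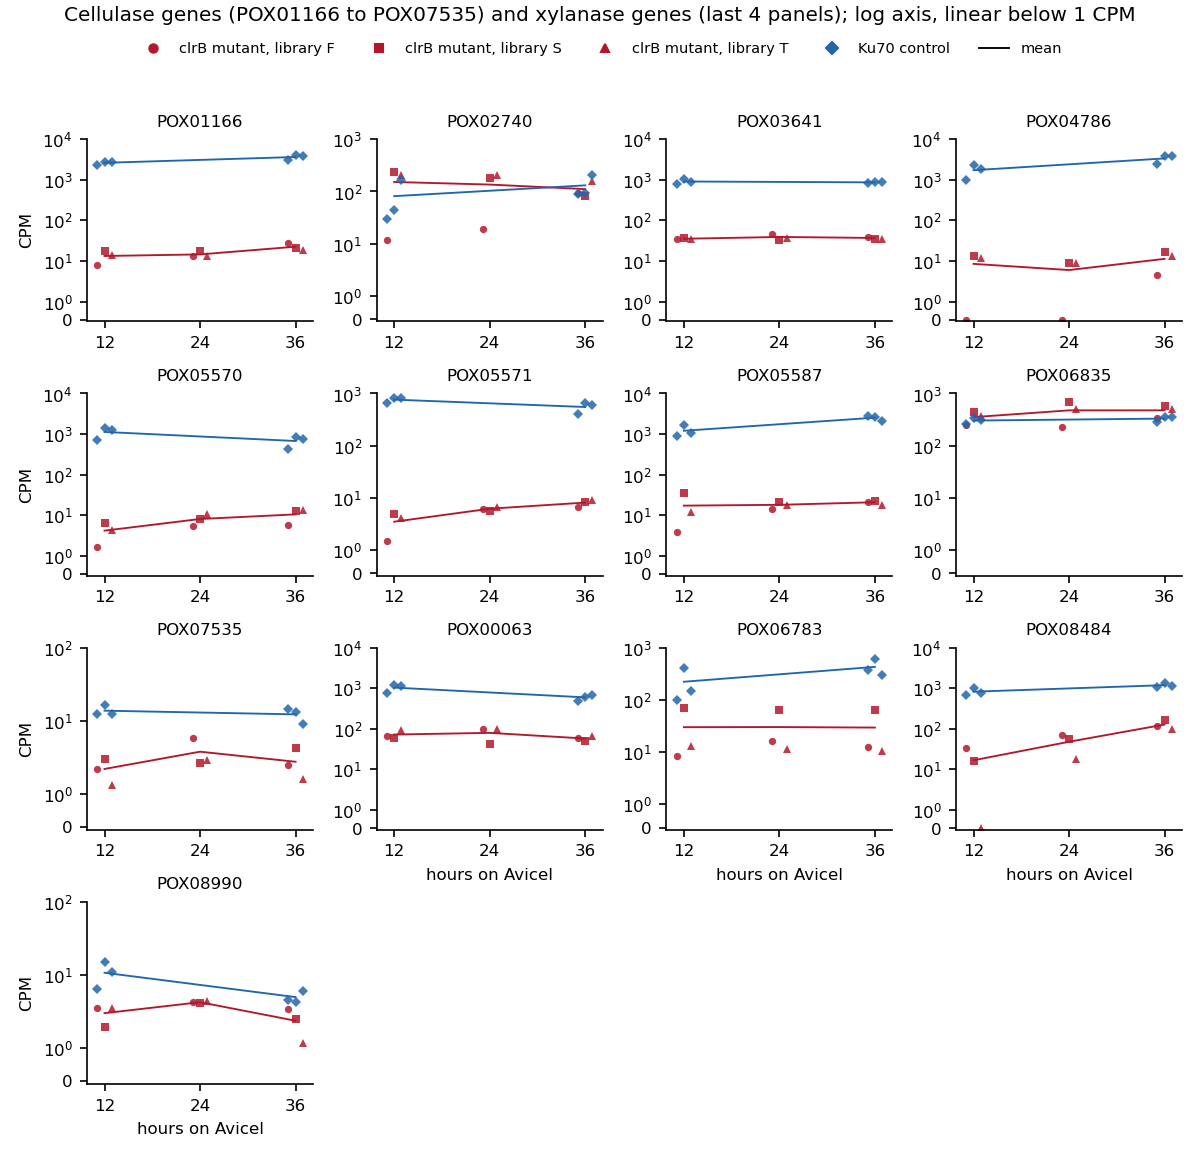
Level in CPM of the 9 cellulase and 4 xylanase genes (log axis, linear below 1 CPM) against hours on Avicel; red symbols are mutant libraries F, S and T, blue diamonds are control libraries, and lines join group means. In 7 of the 9 cellulase genes every mutant library lay below every control library, POX02740 and POX06835 overlapped with the control, and POX08484 rose over the span in the mutant.

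The amylase genes of the mutant stood above those of the control in every library of 36 h. Over the span all 3 had a higher change in the mutant, against 1.67% of all genes, and none of these differences passed with libraries F and S alone. POX09352 stood at 179.9, 741 and 389 CPM at 12 h, 1136, 2551 and 1869 at 24 h, then 1427, 2092 and 1671 at 36 h. POX09352 rose over the first step (log2 fold change 1.93, SE 0.42, adjusted p = 0.00199) and over the span (log2 fold change 2.00, SE 0.42, adjusted p = 0.000608). Every 24 h library lay above every 12 h library. In the control it stood at 156, 155 and 154 CPM at 12 h and 53.4, 57.8 and 48.1 CPM at 36 h, and the span of the mutant minus that of the control was 3.52 (SE 0.58, adjusted p = 0.000165 in edgeR). Without the 12 h library S this difference was 4.24, the rise of the first step 2.65 and that of the span 2.72.

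POX01356 stood at 1189, 2118 and 1631 CPM at 12 h, 2328, 1989 and 2207 at 24 h, then 521, 1335 and 908 at 36 h. In the control POX01356 stood at 959, 1212 and 1187 CPM at 12 h, then 76.7, 109.6 and 91.2 at 36 h. The difference of the spans was 2.79 (SE 0.61, adjusted p = 0.00374). Every 36 h library of the mutant lay below every 24 h library and above every 36 h library of the control. That second step was -1.03 (adjusted p = 0.148 in edgeR) and passed with the letter as a block (adjusted p = 0.0292, with 0.0147 to 0.886 over all alternatives). POX02412 stood at 234, 350.1 and 343 CPM at 12 h, 328, 459 and 424 at 24 h, then 267, 842 and 546 at 36 h. In the control POX02412 stood at 268, 386 and 316 CPM at 12 h, then 75.5, 151 and 119.7 at 36 h. Its difference of the spans was 2.37 (SE 0.63, adjusted p = 0.0231 in edgeR) and no longer passed without the 36 h library S (1.90, adjusted p = 0.123), without the 12 h library F (adjusted p = 0.0664) or without the control library 24 or 26 (adjusted p = 0.0681 and 0.0852).

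POX03890, the gene listed as the regulator of starch breakdown, peaked in mean level at 24 h. It stood at 95.6, 134 and 93.6 CPM at 12 h, 185, 242 and 153 at 24 h, then 32.2, 130.1 and 48.98 at 36 h, and all 3 libraries of 24 h lay above those of 12 h and 36 h. In edgeR neither step passed (0.71, adjusted p = 0.614, then -1.26, adjusted p = 0.250). With the letter as a block the second step was -1.46 (adjusted p = 1.82e-05, with 8.39e-09 to 0.894 over all alternatives). The control stood at 68.4, 103 and 65.5 CPM at 12 h and 15.4, 59.1 and 17.9 CPM at 36 h.

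Of the 4 regulators deleted elsewhere in the series, 2 fell over the span and 0 rose, against 4.58% and 5.39% of all genes. With libraries F and S alone and the letter as a block, 0 of the 4 fell and 0 rose. POX04420 stood at 121, 50.3 and 85.1 CPM at 12 h, 84.2, 70.8 and 75.1 at 24 h, then 17.3, 45.6 and 34.1 at 36 h. POX04420 fell over the second step (log2 fold change -1.04, SE 0.29, adjusted p = 0.0191) and over the span (log2 fold change -1.30, SE 0.29, adjusted p = 0.00128). Its 36 h libraries lay below all earlier ones, with library F the lowest, and without that library the second step was -0.72 (adjusted p = 0.175) and the span -0.98. The second step was also lost without the 24 h library F (adjusted p = 0.0666) or T (adjusted p = 0.0609). The control went from 138, 93.8 and 113 CPM at 12 h to 44.1, 44.2 and 47.4 at 36 h, and the difference of the spans was 0.01 (SE 0.41, adjusted p = 1.00).

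POX07277 stood at 127, 38.5 and 91.2 CPM at 12 h, 28.3, 70.7 and 43.4 at 24 h, then 40.9, 28.8 and 35.01 at 36 h. POX07277 fell over the span (log2 fold change -1.20, SE 0.24, adjusted p = 0.000357). The 12 h and 36 h libraries overlapped, since the 12 h library S was low, and without the 12 h library F the fall was -0.86, under the 2-fold limit. POX02968 lay between 45.2 and 65.0 CPM in all 9 libraries. POX01167 followed the letters, with library T lowest at each time (380.2, 1449 and 163 CPM at 12 h, 1551, 1265 and 266 at 24 h, then 1707, 1719 and 217 at 36 h), and was not changed over either step. The same order, with T lowest, stood in the control at 212, 329 and 98.7 CPM at 12 h, then 1214, 1236 and 157 at 36 h.

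**Figure D4:**
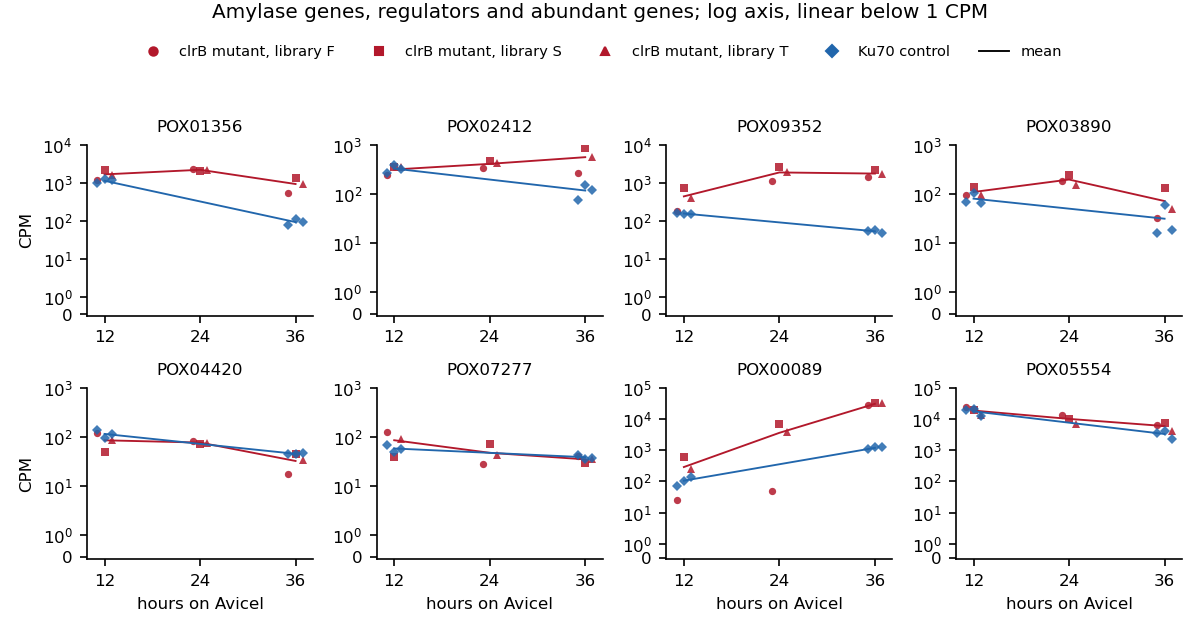
Level in CPM (log axis, linear below 1 CPM) against hours on Avicel for the 3 amylase genes, the starch regulator POX03890, the regulators POX04420 and POX07277, and the abundant genes POX00089 and POX05554; red symbols are mutant libraries F, S and T, blue diamonds control libraries, and lines join group means. At 36 h the 3 amylase genes of the mutant stood above every control library of that time, and the 24 h library F of POX00089 stood near the 12 h level.

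The named genes that rose between 12 and 24 h did so mostly in libraries S and T. Named genes of each step and of the difference from the control were picked for mutant libraries that did not overlap between the times compared. Such separation therefore follows from the choice. POX09110 went from 11.4, 6.61 and 5.84 CPM at 12 h to 17.1, 665 and 374 CPM at 24 h and 2796, 2154 and 2305 CPM at 36 h, and it rose over both steps (log2 fold change 5.42, SE 1.02, adjusted p = 0.000506, then log2 fold change 2.91, SE 0.90, adjusted p = 0.0376). The 24 h library F stayed near the 12 h level. The second step did not pass without the 24 h library F or T or any 1 library of 36 h (adjusted p = 0.166, 0.119, 0.0861, 0.0565 and 0.0632), and without the 24 h library S it was 3.83. POX08190, at a higher level, likewise had its lowest 24 h value in library F. It stood at 153, 388 and 173 CPM at 12 h, 394, 4717 and 2759.6 at 24 h, then 5568, 5749 and 5319 at 36 h. It rose over the first step (log2 fold change 3.34, SE 0.90, adjusted p = 0.0135), a call lost without the 24 h library S (adjusted p = 0.0808) or without the 12 h library F or T (adjusted p = 0.0697 and 0.0724). Over the span it rose by 4.56 (SE 0.95, adjusted p = 0.000645), and by 5.21 without the 12 h library S.

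POX07083 stood at 4.10, 7.30 and 3.30 CPM at 12 h, 8.97, 158 and 93.1 at 24 h, then 556, 394 and 354 at 36 h. POX03395 stood at 11.55, 7.99 and 6.14 CPM at 12 h, 17.9, 165 and 83.2 at 24 h, then 273, 181 and 201 at 36 h. Both rose over the first step (4.03, adjusted p = 0.000397, and 3.31, adjusted p = 7.28e-05, in edgeR), and the 36 h libraries of both were the highest. The neighbours POX07668 and POX07669 rose together. POX07668 stood at 28.1, 123 and 71.1 CPM at 12 h, 171, 859.6 and 580.4 at 24 h, then 759, 639 and 764 at 36 h. POX07668 rose by 2.72 (SE 0.46, adjusted p = 0.000141). POX07669 stood at 12.1, 57.5 and 32.1 CPM at 12 h, 67.5, 453 and 286 at 24 h, then 414, 370.0 and 454 at 36 h. POX07669 rose by 2.85 (SE 0.50, adjusted p = 0.000226). In both the 24 h and 36 h libraries overlapped, and at 36 h the control held 933, 845 and 940.0 CPM of the first and 413, 450.0 and 482 CPM of the second. Without the 12 h library S the rises were 3.39 and 3.57, and that of POX08190 3.99.

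POX09066 had a peak in mean level at 24 h, at 5.77, 4.96 and 4.19 CPM at 12 h, 8.73, 63.7 and 37.1 at 24 h, then 19.96, 22.1 and 21.6 at 36 h. It rose over the first step (log2 fold change 2.79, SE 0.40, adjusted p = 1.51e-05). In the control POX09066 stood at 5.82, 4.59 and 5.32 CPM at 12 h, then 65.7, 124 and 129.6 at 36 h. The other named genes of this direction, POX04463, POX07363 and POX04224, rose by 2.35 to 3.37 on the log2 scale. Over the 10 named genes the rise ran from 2.35 to 5.42 with all libraries and from 1.77 to 4.50 without the 24 h library S, with 9 of 10 still changed. With the spread of the 9 mutant libraries alone 0 of 10 passed in edgeR, and with libraries F and S alone 0 of 10.

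The named genes that fell between 12 and 24 h were mostly high in the 12 h library S, and several rose again by 36 h. Only in POX00805, POX06033 and POX04823 did the mean of 36 h reach that of 12 h. POX06221, the most abundant of them at 12 h, stood at 431, 2470.3 and 1275 CPM at 12 h, 124, 138 and 138 at 24 h, then 921, 512 and 711 at 36 h. It fell over the first step (log2 fold change -3.57, SE 0.50, adjusted p = 1.08e-05) and rose over the second (log2 fold change 2.60, SE 0.48, adjusted p = 0.000342). In the control POX06221 stood at 484, 2234 and 1441 CPM at 12 h, then 1488, 1787 and 1648 at 36 h. POX09076 stood at 77.7, 1727 and 658 CPM at 12 h, 11.6, 10.6 and 7.07 at 24 h, then 552, 213 and 303 at 36 h. POX09076 fell by 6.60 (SE 0.78, adjusted p = 9.18e-07) and rose by 5.37 (SE 0.73, adjusted p = 4.43e-06). All 24 h libraries of both genes lay below all other mutant libraries, which the choice of genes required against 12 h, and for POX09076 also against 36 h.

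POX00805 stood at 189, 1125 and 483 CPM at 12 h, 0, 21.6 and 0 at 24 h, then 688, 656 and 501 at 36 h, with no count in 2 of the 3 libraries of 24 h. It fell over the first step and rose over the second (adjusted p = 0.000177 and 0.000147 in edgeR), and it held 276, 860.4 and 527 CPM at 12 h, then 1425, 1070.2 and 949 at 36 h in the control. POX06033 stood at 147, 829.8 and 437 CPM at 12 h, 67.2, 39.7 and 47.4 at 24 h, then 722, 269 and 423 at 36 h. POX06033 fell by 3.40 (SE 0.52, adjusted p = 5.03e-05) and rose by 3.39 (SE 0.52, adjusted p = 2.74e-05). POX08478 stood at 9.31, 209 and 95.9 CPM at 12 h, 4.12, 4.41 and 2.36 at 24 h, then 67.9, 20.98 and 37.95 at 36 h. POX04823 stood at 19.6, 40.6 and 25.8 CPM at 12 h, 0, 7.58 and 1.03 at 24 h, then 37.6, 34.3 and 29.9 at 36 h. Both fell and then rose, and neither change of POX04823 passed without the 24 h library T (adjusted p = 0.0796 and 0.0625).

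Of the other named genes that fell over the first step, POX03073 stayed low at 36 h. It stood at 2.61, 37.999 and 19.5 CPM at 12 h, 1.46, 1.93 and 1.18 at 24 h, then 0.963, 1.68 and 1.77 at 36 h. In the control POX03073 stood at 13.9, 64.95 and 34.5 CPM at 12 h, then 2.41, 1.25 and 1.57 at 36 h. It fell over the first step (log2 fold change -3.90, SE 0.83, adjusted p = 0.00184) and over the span (-3.76, adjusted p = 0.00114, and -2.80 without the 12 h library S). POX02838 stood at 12.5, 179.8 and 75.6 CPM at 12 h, 0, 4.41 and 0 at 24 h, then 12.1, 10.5 and 8.68 at 36 h. POX02838 fell over the first step (log2 fold change -6.05, SE 1.09, adjusted p = 0.000293). POX00174 stood at 68.7, 20.4 and 34.4 CPM at 12 h, 0, 5.51 and 0 at 24 h, then 4.95, 0.140 and 0 at 36 h. Its fall over the first step (log2 fold change -4.48, SE 1.33, adjusted p = 0.0251) no longer passed without the 12 h library F (adjusted p = 0.0696) or the 24 h library F or T (adjusted p = 0.0916 and 0.111). POX06446 stood at 44.1, 698 and 64.4 CPM at 12 h, 13.8, 9.09 and 0 at 24 h, then 359, 107 and 0 at 36 h, with library T at 0 at 24 and 36 h and libraries F and S high again at 36 h. Its fall (log2 fold change -5.38, SE 1.62, adjusted p = 0.0278) shrank to -2.91 (adjusted p = 0.255) without the 12 h library S, and it did not pass without any 1 of the 24 h libraries (adjusted p = 0.0612, 0.0782 and 0.111). Over the 10 named genes the log2 change ran from -6.60 to -3.40, and from -5.53 to -2.61 without the 12 h library S. With the spread of the 9 mutant libraries alone 0 of 10 passed in edgeR, and with libraries F and S alone 1 of 10. Without the 24 h library S no count was left at 24 h in POX00805, POX02838 and POX00174, and their change had no measured size. Without the 24 h library F or T the change of POX00805 was -5.88 or -5.87, that of POX02838 -5.44 or -5.45, and that of POX04823 without F or S -2.80 or -5.99, with a second step of 6.26 without S.

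**Figure D5:**
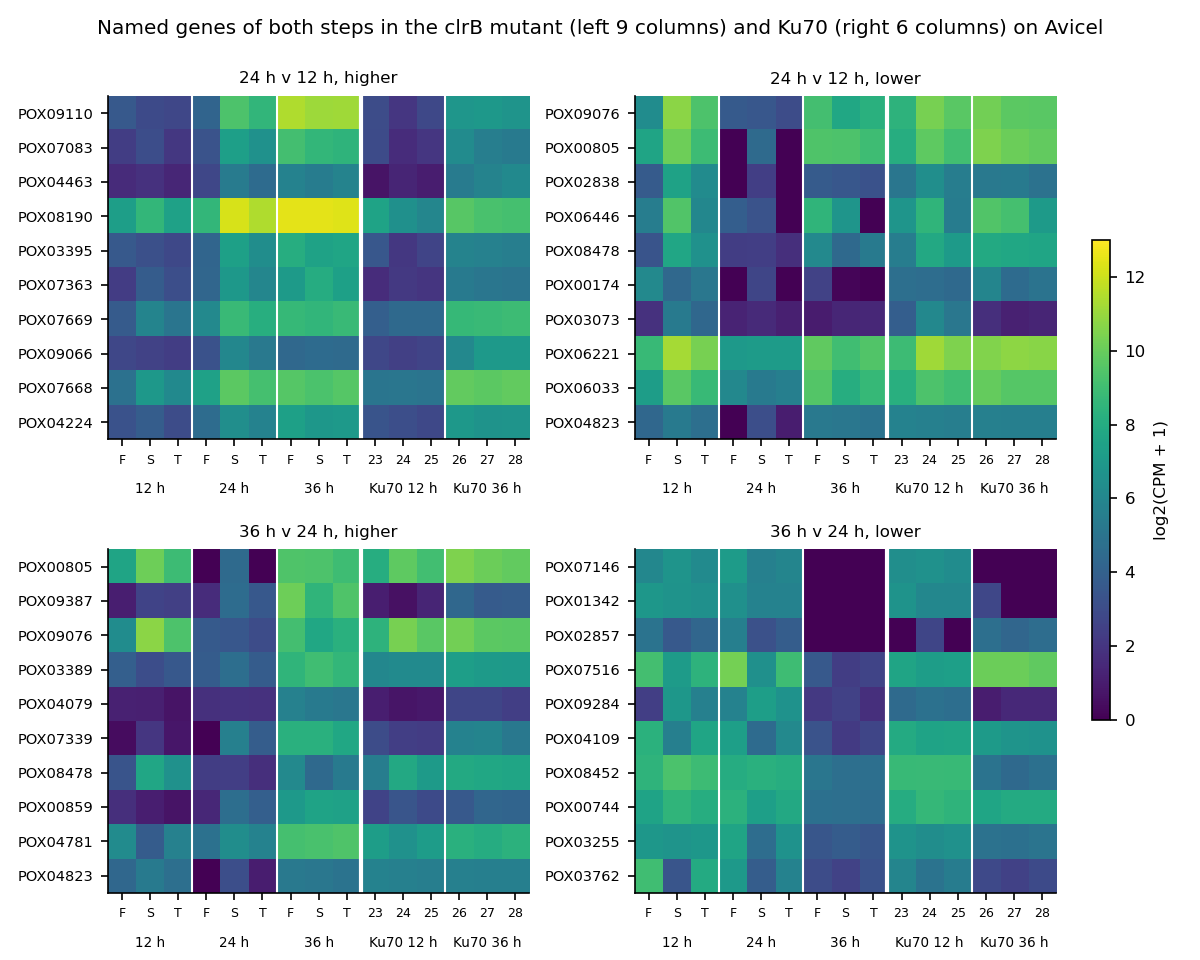
Level as log2(CPM + 1) of the 10 named genes that rose most and the 10 that fell most in each step, in the 9 mutant libraries (F, S and T at each time) and the 6 control libraries (23 to 28). The 24 h library F stood below libraries S and T for the genes that rose over the first step, POX07146, POX01342 and POX02857 were at 0 in every mutant library of 36 h, and POX06221 and POX09076 were lowest in the 24 h columns of the mutant.

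Between 24 and 36 h several genes came up from near 0. POX09387 stood at 1.12, 5.23 and 4.49 CPM at 12 h, 2.18, 22.9 and 10.8 at 24 h, then 1134, 358 and 678 at 36 h. POX09387 rose over the second step (log2 fold change 6.04, SE 0.65, adjusted p = 5.35e-08) in all 3 libraries, against 19.5, 12.1 and 13.5 CPM in the control at 36 h. POX03389 stood at 14.2, 7.43 and 10.8 CPM at 12 h, 12.7, 25.2 and 12.8 at 24 h, then 369, 511 and 395 at 36 h. POX03389 rose by 4.82 (SE 0.26, adjusted p = 1.92e-15), with close levels in the 3 libraries of 36 h. This call was kept with libraries F and S alone (adjusted p = 4.6e-06, with 4e-112 to 0.00871 over all alternatives). POX04781 stood at 75.6, 12.5 and 51.2 CPM at 12 h, 28.01, 83.1 and 53.8 at 24 h, then 582, 625 and 689 at 36 h. POX04781 rose by 3.68 (SE 0.41, adjusted p = 8.45e-08). POX04079 stood at 1.30, 1.24 and 0.599 CPM at 12 h, 2.55, 2.76 and 2.65 at 24 h, then 52.02, 39.4 and 34.3 at 36 h. POX04079 rose by 4.16 (SE 0.70, adjusted p = 0.0001).

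POX00859 and POX07339 rose over both steps, with the 24 h library F below S and T. POX00859 stood at 2.42, 1.10 and 0.599 CPM at 12 h, 1.70, 25.2 and 14.3 at 24 h, then 127, 188 and 173 at 36 h (first step 3.27, adjusted p = 0.00283, second step 3.71, adjusted p = 0.00053, in edgeR). POX07339 stood at 0.373, 3.17 and 0.749 CPM at 12 h, 0, 50.01 and 13.3 at 24 h, then 299.6, 305 and 211 at 36 h (first step 3.72, adjusted p = 0.00907, second step 3.80, adjusted p = 0.00681). The first step of POX07339 did not pass without the 24 h library S (adjusted p = 0.196) or the 12 h library F or T (adjusted p = 0.0533 and 0.0562), and was 5.17 without the 12 h library S and 4.31 without the 24 h library F. Over the 10 named genes that rose over the second step, the change ran from 3.67 to 6.51, and from 3.07 to 5.92 without the 24 h library F, with 10 of 10 still changed. Without the 24 h library S the second step was 7.01 for POX09387, 4.56 for POX00859 and 5.56 for POX07339, and the first step of POX00859 2.41. With libraries F and S alone 5 of 10 passed, and with the spread of the 9 mutant libraries alone 3 of 10.

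The genes that fell between 24 and 36 h included 3 of the named genes that held no count at 36 h. POX07146 stood at 64.1, 107 and 73.2 CPM at 12 h, 139, 49.2 and 58.5 CPM at 24 h and 0 in all 3 libraries of 36 h, at least 194-fold lower than at 24 h against a floor of 3 counts a library. The control showed the same, with 84.2, 93.4 and 78.7 CPM at 12 h and 0 in all 3 libraries of 36 h. POX01342 went from 119, 101 and 91.1 CPM at 12 h and 89.9, 52.9 and 53.02 at 24 h to 0, at least 154-fold lower. Both passed narrowly (adjusted p = 0.0473 and 0.0451 in edgeR), and neither did when any 1 library of the course other than the 24 h library S was left out (adjusted p = 0.056 to 0.146 and 0.055 to 0.136).

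POX02857 went the opposite way to the control. It stood at 30.4, 11.3 and 18.9 CPM at 12 h, 47.3, 8.27 and 13.1 at 24 h, then 0, 0 and 0 at 36 h, at least 53.9-fold lower at 36 h than at 24 h (adjusted p = 4.95e-06 in edgeR). In the control POX02857 stood at 0, 5.51 and 0 CPM at 12 h, then 25.7, 18.7 and 23.6 at 36 h. POX07516 stood at 553, 138 and 335 CPM at 12 h, 1241, 90.8 and 494 at 24 h, then 11.4, 4.06 and 5.44 at 36 h. POX07516 fell by 6.20 (SE 0.68, adjusted p = 8.45e-08). In the control POX07516 stood at 189, 151 and 163 CPM at 12 h, then 1072, 1066 and 919.8 at 36 h. The lowest 24 h library was S in both genes, and the 36 h libraries lay below all earlier ones, as the choice of these genes required. Whether fewer transcripts per cell or fewer cells of a kind underlie such a fall cannot be told apart in bulk RNA.

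POX09284 stood at 4.28, 116 and 48.98 CPM at 12 h, 52.99, 155 and 96.3 at 24 h, then 3.44, 4.76 and 2.35 at 36 h. POX09284 fell by 4.68 (SE 0.71, adjusted p = 2.41e-05). POX00744 stood at 183, 358 and 274 CPM at 12 h, 323, 162 and 233 at 24 h, then 27.1, 25.7 and 24.3 at 36 h. POX00744 fell by 3.005 (SE 0.36, adjusted p = 3.96e-07), with 36 h libraries close together and the control at 201, 243 and 248 CPM at 36 h. POX03762 stood at 509, 9.64 and 247 CPM at 12 h, 129, 13.1 and 53.5 at 24 h, then 7.16, 4.90 and 8.68 at 36 h, and its fall (log2 fold change -2.99, SE 0.66, adjusted p = 0.0029) was -2.09 (adjusted p = 0.0623) without the 24 h library F. The other named genes of this direction, POX04109, POX08452 and POX03255, fell by 2.99 to 3.54. Leaving aside the 3 genes at 0, the log2 change of the named genes ran from -6.20 to -2.99, and from -5.22 to -2.09 without the 24 h library F. With the spread of the 9 mutant libraries alone 3 of 7 passed in edgeR, and with libraries F and S alone 3 of 7.

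Many of the changes were 2-fold in only 1 of the pairs F and S. Of the 187 genes that rose over the first step, 84 rose at least 2-fold in both the F pair and the S pair (44.9%), 90 did so only in the S pair and 9 only in the F pair, on the log2(CPM + 1) scale. Of the 224 that fell over the first step, 54 fell in both pairs (24.1%), 87 only in the F pair and 77 only in the S pair, and 51 moved the opposite way in 1 of the pairs. Of the 220 that rose over the second step, 102 did so in both pairs (46.4%), 98 only in the F pair and 9 only in the S pair. Of the 143 that fell over the second step, 55 fell in both pairs (38.5%), 81 only in the F pair and 6 only in the S pair. Of all tested genes 2.37% rose and 0.921% fell at least 2-fold in both pairs over the first step, and 1.74% and 1.44% over the second. Over the span 314 of the 439 higher genes (71.5%) and 178 of the 373 lower genes (47.7%) changed at least 2-fold in both, against 5.08% and 3.07% of all tested genes. The changed genes were called from these same libraries with a 2-fold minimum. Shares above those of all tested genes therefore follow from the call and are no measure of agreement between libraries. The pairs rest on the letters alone, since the labels state no pairing, and what sets F and S apart was not tested.

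Over the 3 times together, 42 genes rose steadily (0.516% of 8147), 8 fell steadily (0.0982%), 23 peaked at 24 h (0.282%) and 48 had a trough at 24 h (0.589%), where the libraries of neighbouring times did not overlap and their means differed at least 2-fold. These are descriptions without a test. POX00837 was among the most abundant steady risers, at 69.1, 238 and 135 CPM at 12 h, 502, 518 and 512 at 24 h, then 2087, 2576 and 2479 at 36 h, and over the span it rose (log2 fold change 4.03, SE 0.47, adjusted p = 8.49e-08). Its libraries of 24 h and of 36 h were close together, the control went from 79.8, 79.4 and 84.6 CPM at 12 h to 166, 209 and 167 at 36 h, and the difference of the spans was 2.85 (SE 0.60, adjusted p = 0.00281). Without the 12 h library S the span was 4.66 and the difference 3.48. The first step of POX00837 (1.62, adjusted p = 0.012, without the 12 h library S 2.24) did not pass without the 12 h library F or T (adjusted p = 0.0865 and 0.0577).

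POX06153 stood at 77.5, 113 and 97.4 CPM at 12 h, 167, 670.0 and 421 at 24 h, then 2728, 2084 and 2253 at 36 h, against 129.5, 106 and 116 CPM at 12 h, then 193, 187 and 187 at 36 h in the control. It rose over both steps (2.02, adjusted p = 0.000207, and 2.64, adjusted p = 4.6e-06, in edgeR), the first being 1.44 and the second 3.22 without the 24 h library S, and the difference of the spans from the control was 3.94 (SE 0.50, adjusted p = 2.57e-06). Among the steady falls, POX07619 was the most abundant, at 11272, 1866 and 6001 CPM at 12 h, 1787, 1777 and 1566 at 24 h, then 565, 351 and 407 at 36 h. POX07619 fell over the span (log2 fold change -3.74, SE 0.56, adjusted p = 7.05e-06, and -3.12 without the 12 h library F). Its first step (-1.97, adjusted p = 0.0121) did not pass without the 12 h library F (-1.35, adjusted p = 0.127) or the 24 h library T (adjusted p = 0.0599), and its second step (-1.77, adjusted p = 0.0274) without any 1 library of 24 h or 36 h (adjusted p = 0.0505 to 0.112). POX08562 stood at 4479.6, 2559 and 3558 CPM at 12 h, 1758, 1523 and 1654 at 24 h, then 748, 788.8 and 809.6 at 36 h and did not pass over the span (adjusted p = 0.0814). POX00022 stood at 1036, 315 and 729 CPM at 12 h, 185, 266 and 234 at 24 h, then 148, 78.5 and 94.7 at 36 h. POX00022 fell over the span (log2 fold change -2.60, SE 0.31, adjusted p = 8.87e-08).

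The 3 most abundant genes with a peak at 24 h were POX07688, POX06922 and POX01833. POX07688 stood at 521, 477 and 519 CPM at 12 h, 1648, 796 and 1196 at 24 h, then 506, 639 and 583 at 36 h. POX06922 stood at 148, 133 and 153 CPM at 12 h, 585, 262 and 388 at 24 h, then 163, 215 and 189 at 36 h. POX01833 stood at 29.1, 49.6 and 48.5 CPM at 12 h, 213, 55.7 and 128 at 24 h, then 21.6, 32.3 and 27.5 at 36 h. At 24 h library F was the highest of each and library S the lowest. POX07688 rose over the first step (log2 fold change 1.11, SE 0.24, adjusted p = 0.00171) and was under the 2-fold limit without the 24 h library F (0.89). POX06922 also rose (log2 fold change 1.36, SE 0.29, adjusted p = 0.00167). POX01833 rose over the first step (1.45, adjusted p = 0.012) and fell over the second (log2 fold change -2.05, SE 0.39, adjusted p = 0.000567), and its rise did not pass without the 24 h library F (adjusted p = 0.131) or the 12 h library F (adjusted p = 0.0811).

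The trough of 24 h held genes that were abundant before and after. POX08066 stood at 2040.0, 3008 and 2336 CPM at 12 h, 683, 929 and 824 at 24 h, then 1827, 1982 and 1943 at 36 h. POX08066 fell over the first step (log2 fold change -1.74, SE 0.24, adjusted p = 1.08e-05) and rose over the second (log2 fold change 1.42, SE 0.24, adjusted p = 0.000115). The control held 2865, 3936 and 3336 CPM at 12 h, then 3173, 3003 and 3021 at 36 h. POX06884 stood at 1372, 2462 and 1711 CPM at 12 h, 548, 1145 and 836 at 24 h, then 1789, 1998 and 1946 at 36 h. POX06884 fell by 1.27 (adjusted p = 0.00213) and rose by 1.35 (adjusted p = 0.00127 in edgeR), and its fall was -0.92 without the 12 h library S. POX00835 stood at 1910.0, 2699 and 1507 CPM at 12 h, 778, 448 and 289 at 24 h, then 4054, 2180.5 and 2122 at 36 h, with library F highest at 24 and 36 h. POX00835 fell by 2.18 (SE 0.42, adjusted p = 0.000616) and rose by 2.67 (SE 0.43, adjusted p = 4.95e-05). Steady falls numbered 34 without the 12 h library S and 17 without the 24 h library F, steady rises 67 without the 24 h library F, peaks 98 without the 24 h library S, 40 without the 24 h library T and 35 without the 12 h library F, and troughs 75 without the 12 h library F and 73 without the 24 h library F or S.

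Some of the most abundant transcripts per length changed over the course, and others did not. By FPKM, the deposited level per transcript length and library size, POX00089 went from 23.7, 560.0 and 229.6 at 12 h to 46.5, 6414 and 3669 at 24 h and 25063, 29745 and 31210.5 at 36 h. In CPM it stood at 26.3, 596 and 245 CPM at 12 h, 51.1, 6876 and 3919 at 24 h, then 27399, 31548 and 33282 at 36 h, which made it the gene with the most counts in all 3 libraries of 36 h, at 2.74%, 3.15% and 3.33% of the total. It rose over the span (log2 fold change 6.71, SE 1.01, adjusted p = 6.55e-06). Without the 12 h library S the span was 7.91 and the first step 4.70, and without the 24 h library S the second step was 4.15. The first step (3.49, adjusted p = 0.00696 in edgeR) did not pass without the 24 h library S (adjusted p = 0.0585), and the second (3.22, adjusted p = 0.0143) without the 24 h library T (adjusted p = 0.0605). The control went from 73.4, 107 and 137 CPM at 12 h to 1077, 1275 and 1229 CPM at 36 h, and the difference of the spans was 3.21 (SE 1.14, adjusted p = 0.126), which did not pass.

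POX05554 fell as POX00089 rose. It stood at 23542, 24919.7 and 23634 FPKM at 12 h, 13352, 12979 and 12624 at 24 h, then 6161, 9496 and 7542 at 36 h, and in CPM it fell over the span (log2 fold change -1.59, SE 0.37, adjusted p = 0.00201). The control held 18788, 21350.4 and 12795 CPM at 12 h and 3522, 4076 and 2339.8 CPM at 36 h, and the difference of the spans was 0.81 (SE 0.51, adjusted p = 0.566). POX04863 had the highest mean FPKM, 15614 over the 9 libraries, and ranged from 6105 to 24830 with no change passing the test. POX02853 stood at 4018, 4095 and 4236 FPKM at 12 h, 7762, 6439.9 and 7439 at 24 h, then 5639.8, 6947 and 6467 at 36 h, and its first step of 0.67 (adjusted p = 0.138) did not pass.

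POX01764 and POX02073 differed between the letters at every time. POX01764 stood at 189, 11233 and 2940.0 FPKM at 12 h and 13191, 24126 and 16733 FPKM at 36 h, and POX02073 at 3388, 13343 and 10669 at 12 h, then 5269, 11599.5 and 11622 at 36 h. Library S was the highest at each time for POX01764, and library F the lowest at each time for POX02073. POX01317, POX01174, POX01176 and POX01179 completed the 10 highest mean FPKM, and none changed over a step or the span. The 10 genes with the most counts took 7.88% to 9.15% of the counts at 12 h, 8.01% to 8.996% at 24 h and 10.8% to 11.7% at 36 h, and every 36 h library lay above every earlier one.

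POX05569, which lies next in number to the cellulase gene POX05570, was seen only late. It held 0 counts in all libraries of 12 and 24 h and 6.19, 8.11 and 9.27 CPM at 36 h, at least 19.3-fold higher than at 24 h against a floor of 3 counts a library. It was too low over all libraries to be tested, and without the filter on low counts its second step did not pass (adjusted p = 0.143 in edgeR). It was at 0 in all 6 control libraries.

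The course of the mutant differed from that of the control in 269 genes over the span, 136 with a higher change in the mutant (1.67%) and 133 with a lower one (1.63%), together 3.30% of 8147. With the letter as a block there were 457 (5.61%), without the 6 libraries labelled as the POX01167 mutant on Avicel 411, with libraries F and S alone 22 (0.271%), and with F, S and the block 53 (0.653%). POX03389 had the smallest adjusted p of the 10 named genes. It rose in the mutant from 14.2, 7.43 and 10.8 CPM at 12 h to 369, 511 and 395 at 36 h, while the control went from 63.5, 72.95 and 72.6 CPM at 12 h to 155, 137 and 129.7 at 36 h, a difference of 4.36 (SE 0.32, adjusted p = 1.93e-11). The mutant thus lay below the control at 12 h and above it at 36 h in every library. This difference also passed with libraries F and S alone (adjusted p = 0.000199, with 1.53e-44 to 0.000351 over all alternatives).

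POX00859 stood below the control at 12 h and above it at 36 h. The mutant held 2.42, 1.10 and 0.599 CPM at 12 h, then 127, 188 and 173 at 36 h, the control 5.19, 9.71 and 6.55 CPM at 12 h, then 11.2, 18.4 and 17.3 at 36 h (difference 5.85, SE 1.00, adjusted p = 0.000233). POX05132 fell in the mutant from 841, 1339.6 and 1023 CPM at 12 h to 235, 204 and 198 at 36 h and stood at 376, 376 and 347 CPM at 12 h, then 3.08, 5.57 and 3.58 at 36 h in the control, so that the difference was positive (4.16, SE 0.64, adjusted p = 5.72e-05). POX08761 was close to 0 in the control at both times and stood at 55.7, 24.9 and 38.4 CPM in the mutant at 36 h (adjusted p = 0.026 in edgeR). The differences of POX07339 (adjusted p = 0.0461) and POX08761 were lost when single libraries were left out (adjusted p = 0.0596 to 0.130 for POX07339 without any 1 of the 6 control libraries or of the 12 h libraries F and T and the 36 h libraries of the mutant, and 0.0508 to 0.0801 for POX08761 without the 12 h library F or T, or the control libraries 24, 25, 27 or 28). Without the 12 h library S the difference of POX07339 was 5.69.

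Among the genes with a lower change in the mutant, POX00715 stood at 894, 955 and 984 CPM at 12 h, 245, 1158 and 742 at 24 h, then 149, 99.2 and 125 at 36 h. In the control POX00715 stood at 179, 375 and 278 CPM at 12 h, then 2926, 2669 and 2696 at 36 h. The difference was -6.18 (SE 0.64, adjusted p = 4.55e-08). The 36 h libraries of the mutant lay below all of its earlier ones, which the choice of the gene required against 12 h. POX07516 fell in the mutant and stood at 189, 151 and 163 CPM at 12 h, then 1072, 1066 and 919.8 at 36 h in the control, a difference of -8.16 (SE 0.87, adjusted p = 9.99e-08). POX02857 and POX06958 were at 0 in all mutant libraries of 36 h (adjusted p = 1.12e-06 and 0.000425 for the difference). POX06958 had stood at 80.8, 17.8 and 38.8 CPM at 12 h, at least 108-fold higher than at 36 h, and at 44.01, 15.05 and 13.6 CPM in the control at 36 h. POX04766 stood at 1.86, 13.8 and 6.74 CPM at 12 h, then 38.1, 18.5 and 28.5 at 36 h in the mutant and at 0.759, 0.918 and 1.09 CPM at 12 h, then 134, 88.6 and 124 at 36 h in the control (difference -5.05, SE 1.44, adjusted p = 0.0374), and its call was lost without any 1 of the 6 control libraries, the 12 h libraries S and T or the 36 h libraries of the mutant (adjusted p = 0.052 to 0.110). Without the 12 h library S the difference of POX04766 was -4.15.

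Some changed genes had neighbouring numbers, a pattern chosen after the values were seen, and whether the numbers follow the chromosome is not given in the sources used here. Among genes that rose over the span, 17.3% had a risen gene at the next number, against 5.21% over all tested pairs, and among those that fell over the first step 8.43% against 2.72%. The run POX09716, POX09717, POX09718 and POX09719 fell over the first step, by 2.74 to 3.17 on the log2 scale. POX09716 stood at 229, 16.5 and 111 CPM at 12 h, 18.9, 9.64 and 13.3 at 24 h, then 12.4, 10.8 and 12.5 at 36 h, with the 12 h library F the highest. Without that library the 4 falls were -2.34, -2.26, -2.18 and -1.77, and POX09719 did not pass (adjusted p = 0.135), nor without the 24 h library S or T (adjusted p = 0.0636 and 0.0655), and was -3.46 without the 24 h library F.

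POX08450, POX08451 and POX08452 fell over the second step, by 2.08 to 3.13. POX08450 stood at 486, 1029 and 546 CPM at 12 h, 337, 785 and 398 at 24 h, then 89.5, 140.2 and 89.7 at 36 h. POX08451 stood at 143, 159 and 130.3 CPM at 12 h, 125, 138 and 107 at 24 h, then 28.9, 20.8 and 21.8 at 36 h. The control went the same way, POX08450 from 335, 616 and 361 CPM at 12 h to 72.5, 103 and 54.5 at 36 h, and no difference of the spans passed for these genes. POX08450 did not pass without the 24 h library S or the 36 h library F or T (adjusted p = 0.0706, 0.0722 and 0.0565). POX04109, POX04110 and POX04111 also fell over the second step, and POX03233, POX03234 and POX03235 rose. POX04109 stood at 316, 47.9 and 196 CPM at 12 h, 161, 22.7 and 68.2 at 24 h, then 9.08, 3.64 and 5.59 at 36 h. POX03233 stood at 1.49, 3.03 and 4.34 CPM at 12 h, 2.18, 11.7 and 11.2 at 24 h, then 67.6, 41.1 and 56.2 at 36 h. POX03234, POX03235, POX04110 and POX04111 did not pass without the 24 h library F (adjusted p = 0.167, 0.0623, 0.135 and 0.212) nor without the 36 h library F (adjusted p = 0.0712, 0.0565, 0.077 and 0.0548). The call was also lost for POX03234 without the 24 h library T, for POX03235 without the 24 h library S or T or the 36 h library T, for POX04110 without the 36 h library T and for POX04111 without the 36 h library S or T (adjusted p = 0.0577 to 0.0977).

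Against the control, POX06306, POX06307, POX06308 and POX06309 ran apart over the span. POX06307 stood at 869, 839.5 and 813 CPM at 12 h, 753, 1189 and 963 at 24 h, then 251, 214 and 239 at 36 h. In the control POX06307 stood at 222, 417 and 325 CPM at 12 h, then 2236, 1901 and 2078 at 36 h (difference -4.47, SE 1.08, adjusted p = 0.00959). POX06308 stood at 1200.4, 886 and 1047 CPM at 12 h, 1289.8, 924 and 1018 at 24 h, then 289.7, 222 and 232 at 36 h. In the control POX06308 stood at 493, 788.7 and 645 CPM at 12 h, then 2935, 2475 and 2688 at 36 h (-4.08, SE 0.71, adjusted p = 0.000304). At 12 h the mutant lay above the control in every library of both genes, and at 36 h below it. POX06306 and POX06309 differed by -1.87 and -2.61. The run POX00713, POX00714 and POX00715 showed the same direction, with differences of -2.72, -3.86 and -6.18, and POX00714 stood at 60.2, 50.9 and 95.7 CPM at 12 h, 26.2, 147 and 139 at 24 h, then 32.9, 23.9 and 43.1 at 36 h. In the control POX00714 stood at 13.8, 29.5 and 33.03 CPM at 12 h, then 138, 157 and 265 at 36 h.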

How the data were processed

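RNA was extracted with TRIzol per the labels' protocols. The authors deposited, per gene and library, RSEM expected counts (not whole numbers) and FPKM values. The submitters' processing notes name RSEM 1.2.12, DESeq2, Bowtie2 2.1.0 and BWA 0.7.10-r789 with no role or order, and the genome build is not given in the sources used here. Expected counts were rounded and fitted with edgeR 4.0.16 (R 4.3.3, TMM scaling, quasi-likelihood test, Benjamini-Hochberg adjustment over the 8147 genes that averaged 1 CPM or more). The fit held 48 time-course libraries in 16 groups, with 32 residual degrees of freedom. The written plan had counted 45 and 15. The 6 libraries labelled as the POX01167 mutant on Avicel, whose target gene is present, entered the spread, the filter on low counts and the scaling. Without them 8084 genes were tested, and 480, 456 and 892 were changed over the first step, the second step and the span. limma 3.58.1 on log2(FPKM + 1) and DESeq2 1.42.0 were alternatives, and the scripts were tested on simulated data. Floors of 3 counts cover counting error only. Each SE is the size of the log2 fold change divided by the square root of edgeR's test statistic. It therefore includes the spread between libraries.

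The letters F, S and T mark sets in which the ratio of FPKM to counts per gene agrees between libraries, and control libraries took the letter of the nearest set. Within the mutant, libraries with the same letter deviated together from their group means, with correlations of 0.71 to 0.907 over 9 pairs. The letters were therefore taken as pairs in the fit with a block, although the labels state no pairing. Whether these correlations come from shared quantification or from shared cultures was not tested. Pairs of other letters had correlations of -0.45 to -0.347 over 18 pairs. Deviations from a group mean cancel out within the group, so these negative values follow from the agreement of the same letters. The first 2 principal components, 37.2% and 29.3% of the variance, separated the letters, and the third, 17.7%, followed time. The first also moved with time within each letter. From 12 to 36 h it went from -0.566 to -0.180 in F, from 0.276 to 0.411 in S and from -0.064 to 0.189 in T. Named genes were the 10 highest and 10 lowest changes of each step among changed genes whose libraries did not overlap and whose mean reached 20 CPM in the higher group, the 5 highest and 5 lowest for the difference from the control, the 3 most abundant of each pattern, the 10 highest mean FPKM, and all members of the lists. The members and lists were chosen with earlier results of these data known. None of the 9533 gene IDs matched the available RefSeq table, so no name, coordinate or sequence is given.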

Additional observations from a re-analysis of the deposited data

Results flagged for a closer look

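The course of 31 named genes from 12 to 36 h differed between the clrB mutant and the control strain in the edgeR test of the difference of the spans, adjusted over all genes tested, where 3.30% of genes passed. Named genes were partly chosen by this same difference, so their number is a description.

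Among genes with a higher change in the mutant, the adjusted p was 1.93e-11 for POX03389, 2.57e-06 for POX06153, 5.72e-05 for POX05132, 0.000233 for POX00859, 0.00281 for POX00837, 0.0014 for POX04781, 0.00337 for POX09387, 0.00601 for POX07688, 0.0461 for POX07339 and 0.026 for POX08761. POX03233 (0.00103) and POX03234 (0.0122), neighbours in number, belonged here too. So did the 3 amylase genes, POX09352 (0.000165), POX01356 (0.00374) and POX02412 (0.0231).

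Among genes with a lower change in the mutant, the adjusted p was 4.55e-08 for POX00715, 0.000621 for POX00714 and 0.0037 for POX00713, which follow each other in number. It was 0.000304 for POX06308, 0.000782 for POX06306, 0.00959 for POX06307 and 0.0103 for POX06309. For single genes it was 9.99e-08 for POX07516, 1.12e-06 for POX02857, 0.000217 for POX00744, 0.000425 for POX06958, 0.000782 for POX04109, 0.00786 for POX00022, 0.00948 for POX09066, 0.0228 for POX03255 and 0.0374 for POX04766. POX03255 no longer passed without the control library 23 or 28 or the mutant's 36 h library F or T (adjusted p = 0.0501, 0.0547, 0.0606 and 0.0612).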

How the results depend on the processing

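The number of changed genes, 411 over the first step, 363 over the second, 812 over the span and 269 for the difference from the control, moved most with the choice of libraries. With the mutant's libraries alone (for the difference, both strains) it was 27, 106 and 434 over the steps and the span, and with that and the replicate block 182, 191 and 440 for the first step, the second step and the difference. The replicate block in all libraries gave 556 over the second step and 457 for the difference, and stayed within 1.5 times elsewhere. Libraries F and S alone, chosen after seeing the data, gave 12, 49, 274 and 22, and with the block 79, 123, 490 and 53. Without the libraries labelled as the POX01167 mutant on Avicel the difference had 411. With no minimum fold the counts were 806, 661 and 1289. Leaving out 1 library gave 313 to 441, 220 to 511, 663 to 950 and 209 to 303. Steady rises, steady falls, peaks and troughs numbered 76, 29, 123 and 104 at a minimum fold of 1.5 and 14, 4, 5 and 22 at 3, peaks numbered 12 with TMM-scaled CPM, and leaving out 1 library gave 41 to 67, 7 to 34, 21 to 98 and 43 to 75. POX00174 turned over the second step without the 24 h library S, from -0.03 to a fitted 6.70 on the log2 scale, which has no measured size because no 24 h count was left, and without the 36 h library F it was -4.28. Of 173 changes called for named genes, 40 were kept under every setting. The cause of these shifts was not tested. DESeq2, limma, the other scaling and the absence of a filter kept each of the 4 counts within 1.5 times. Depth limits genes near 1 CPM, where a value rests on few counts.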

Other observations

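At 36 h, POX07146 and POX01342 were at 0 in all 3 mutant libraries after at least 20 CPM in each library of 24 h. POX06901 was at 0 at 36 h after at least 20 CPM in each library of 12 h, as were these 2 genes. No gene went from 0 in all 3 libraries at 12 h to at least 20 CPM in each library of 24 h or of 36 h. Of the genes called lower over the second step, 11 of 143 held no count at 36 h, and of those called higher 5 of 220 held none at 24 h.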
